A study of Triticum aestivum with 6 samples.

Results

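The mutant-only genes were the 96 of 70043 listed wheat genes with at least 10 counts in each of the 3 mutant libraries and at most 3 counts in each of the 3 Fielder libraries. They were chosen on the counts of all 6 libraries, so the contrast between the groups is their definition and not a result. The libraries held total RNA of axillary buds from the spring wheat Fielder, the wild type, and from the tatfl1-5 mutant, with 3 replicates each. In the mutant (aabbdd), the TaTFL1-5 copies of the A, B and D subgenomes carried null mutations made by CRISPR/Cas9 in Fielder, and it was 1 selfed line without the Cas9 transgene. The seedling age and the library kit are given differently within the paper and between the paper and the sample labels, and so neither is stated here. What the rule did not use was the place of these genes in the genome, the genes next to them and their annotation.

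Common wheat is a hexaploid with A, B and D subgenomes, each with 7 chromosomes, and most genes exist as homoeologues, similar copies at matching places of the subgenomes. Axillary buds form in the leaf axils and can grow out into tillers, the side shoots that bear the additional ears of a cereal plant. The chlorophyll a/b binding antenna proteins and the subunits of photosystems I and II, to which several mutant-only genes belong by annotation, collect light and drive electron transport in the thylakoid membranes of the chloroplast. They are typical of green tissue. In bulk tissue, fewer cells of a type and less RNA per cell cannot be told apart. The sources name no markers of axillary buds by wheat identifier, so the tissue label could not be checked against its own markers.

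The library totals lay between 13320461 and 17174131 counts, and 3 counts corresponded to 0.174 to 0.217 CPM, the usual per-library scaling of counts, here on library sizes after TMM normalization. The counts of most mutant-only genes were small, and the intervals below cover counting error only. Edited gene TaTFL1-5A had 1, 7 and 5 counts in mutant replicates 1, 2 and 3 against 9, 14 and 21 in Fielder replicates 1, 2 and 3. TaTFL1-5B had 20, 19 and 23 counts in the mutant against 46, 44 and 31 in Fielder. Neither passed the test (adjusted p = 0.147 and 0.131, edgeR quasi-likelihood test, Benjamini-Hochberg), and TaTFL1-5D was not analysed here. The labels call the libraries of a group biological repeats without saying whether they came from separate plants, so the p-values measure the spread between these libraries.

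The mutant-only genes were near the counting floor in Fielder. Of the 96 genes, 28 had 0 counts in every Fielder library and 68 had at least 1 count in some Fielder library. The highest Fielder count was 1 in 23 genes, 2 in 27 genes and 3 in 18 genes. A count was seen for 23 genes in Fielder replicate 1, for 28 in replicate 2 and for 53 in replicate 3, whose library was the deepest of the Fielder libraries. Summed over the 96 genes, the counts were 40, 55 and 95 in Fielder replicates 1, 2 and 3 (2.89, 3.52 and 5.52 CPM) and 4231, 3565 and 3518 in mutant replicates 1, 2 and 3 (257, 229 and 231 CPM). The genes were thus listed with a trace of counts in Fielder for the most part, rather than with none.

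**Figure D1:**
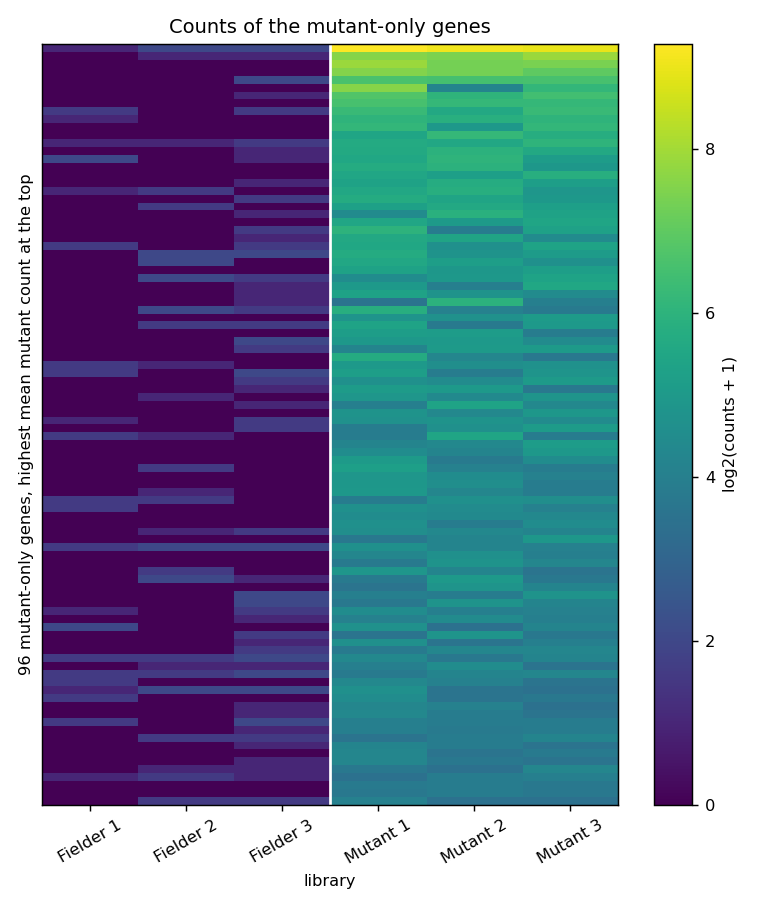
Counts of the 96 mutant-only genes (rows, highest mean mutant count at the top) in the 6 libraries (columns), as log2(counts + 1). The 28 genes with 0 counts in every Fielder library are dark across the 3 left columns, and scattered counts of at most 3 are most frequent in Fielder replicate 3.

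In the mutant, the smallest count over the 3 libraries was 10 to 19 in 61 genes, 20 to 49 in 27 genes, 50 to 99 in 4 genes and 100 or more in 4 genes. Most genes therefore stood just above the limit of 10 counts. The mean mutant level lay between 0.234 and 82.1 FPKM with a median of 1.31, where FPKM are the deposited counts scaled by gene length and library total. It was under 1 FPKM in 43 genes, from 1 to under 5 FPKM in 47 genes and at 5 FPKM or more in 6 genes. Over all 48241 genes with at least 10 counts in every mutant library, of which the mutant-only genes made up 0.199%, the median was 5.00 FPKM. The gene length implied by counts and FPKM was between 252 and 4576 bases with a median of 1373.5, against a median of 1729 over those 48241 genes. In this population the mutant-only genes were thus mostly low and somewhat short.

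All 92 of the mutant-only genes that passed the filter on low counts were called higher in the mutant, at an adjusted p under 0.05 and a log2 fold change above 1 (edgeR quasi-likelihood test, Benjamini-Hochberg), beside 7.98% of the 52228 tested genes. Because the rule used this contrast, nothing follows from that count. Of the 92 genes, 77 kept the call whichever of the 6 libraries was left out. The other 4 mutant-only genes did not pass the filter (TraesCS2D02G429700, TraesCS4B02G094800, TraesCS5D02G087300 and TraesCS6D02G011500). For the 28 genes with 0 Fielder counts, the mean mutant CPM was at least 4.14-fold to at least 61.7-fold higher than the level of 3 counts per Fielder library, with a median bound of 7.88. For the 68 genes with Fielder counts, the ratio of mutant to Fielder counts per TMM-normalized library size lay between 6.35 and 298, with a median of 34.0. With the 28 genes set at their bound, the median over all 96 genes was 23.5.

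The most abundant mutant-only gene was TraesCS3D02G342400, a short gene of 417 bases on chromosome 3D. It had 621, 536 and 501 counts in the mutant against 1, 3 and 3 in Fielder, in the order of replicates 1, 2 and 3, which is kept from here on. Its level was 82.1 ± 5.81 FPKM in the mutant (SD, n = 3), rank 1266 among the listed genes, and the ratio of mutant to Fielder was 234 (exact 95% interval 113 to 583). It stood far above the other mutant-only genes, since the next by FPKM, the antenna protein gene TraesCS1A02G403300, had 14.6 ± 2.73 FPKM. No description of TraesCS3D02G342400 was at hand.

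Other abundant mutant-only genes outside the annotated stretch included 3 with like counts in the mutant libraries. TraesCS5D02G066200 had 193, 175 and 236 counts in the mutant against 0, 1 and 1 in Fielder, the highest ratio among the 68 genes with Fielder counts (298, 95% interval 82.2 to 2469). TraesCS4B02G089500 had 189, 161 and 125 counts in the mutant against 0 in every Fielder library, at least 51.5-fold higher. TraesCS4A02G226900 had 97, 92 and 94 counts in the mutant against 0, 0 and 3 in Fielder (ratio 93.2, 31.6 to 455). The 3 mutant libraries of this last gene differed by 1.05-fold at most, while its only Fielder counts came from replicate 3.

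TraesCS7D02G326800 had 78, 48 and 78 counts in the mutant against 2, 0 and 2 in Fielder (ratio 50.4, 19.4 to 187). TraesCS2D02G327800, of 324 bases, had 52, 62 and 29 counts in the mutant against 0 in every Fielder library, at least 15.5-fold higher. With its short length it reached 9.07 ± 3.02 FPKM, the third highest level of the mutant-only genes.

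Several mutant-only genes rested largely on 1 mutant library. TraesCS6D02G365700 had 191, 17 and 70 counts in the mutant against 0 in every Fielder library, and 68.7% of its mutant counts were in replicate 1. It was at least 29.7-fold higher with all mutant libraries and at least 14.6-fold higher without mutant replicate 1. TraesCS7D02G531200 had 11, 61 and 15 counts in the mutant against 0, 0 and 1 in Fielder, and its ratio of 85.9 was 38.3 without mutant replicate 2. In both genes 1 library held most of the mutant counts.

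TraesCS7D02G204900 had 56, 16 and 13 counts in the mutant against 0, 3 and 2 in Fielder, and its ratio of 16.8 was 8.79 without mutant replicate 1, where its call was lost (adjusted p = 0.0971, edgeR quasi-likelihood test, Benjamini-Hochberg). TraesCS7A02G544900 had 51, 18 and 12 counts in the mutant against 0 in every Fielder library, at least 8.65-fold higher and at least 5.00-fold higher without mutant replicate 1. TraesCS3B02G011600 had 63, 14 and 39 counts in the mutant against 0, 0 and 2 in Fielder, and its ratio of 57.3 was 40.2 without mutant replicate 1. Over all 96 genes, the CPM of the highest mutant library was 1.02 to 10.6 times that of the lowest, with a median of 1.67. It was over 3 times in 7 genes and under 1.5 times in 32 genes.

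The mutant libraries did not take equal parts in this spread. The highest CPM was in mutant replicate 1 for 44 genes, in replicate 2 for 25 and in replicate 3 for 27, and the lowest was in replicate 1 for 24 genes, in replicate 2 for 37 and in replicate 3 for 35. At like counts the spread was close to that of other genes. The 48 mutant-only genes with a mean mutant count from 17.6 to 37.4 had a median ratio of the highest to the lowest library of 1.95, against 1.86 over 6011 other genes in that range.

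The limits of the rule cut through a continuum of low counts. Just inside were TraesCS4B02G094800, with 16, 10 and 10 counts in the mutant against 0, 2 and 2 in Fielder, and TraesCS5D02G087300, with 10, 14 and 15 counts in the mutant against 1, 2 and 1 in Fielder. A smallest mutant count of 10 was found in 6 mutant-only genes, and 18 had a highest Fielder count of 3. Just outside, 16 genes met the Fielder limit with a smallest mutant count of 9, and 53 genes met the mutant limit with a highest Fielder count of 4.

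Of the genes just outside, TraesCS3D02G115300 had 9, 49 and 14 counts in the mutant against 0, 1 and 0 in Fielder. TraesCS4A02G063600 had 28, 9 and 28 counts in the mutant against 0, 0 and 1 in Fielder. TraesCS2B02G216400 had 198, 28 and 72 counts in the mutant against 3, 1 and 4 in Fielder. TraesCS7A02G145800 had 42, 113 and 52 counts in the mutant against 0, 4 and 0 in Fielder. TraesCS4D02G287200 had 60, 46 and 80 counts in the mutant against 4, 0 and 2 in Fielder. A single count kept each of these last 3 genes out. Their groups could not overlap, since the genes were picked for meeting the mutant limit with a highest Fielder count of 4. Dropping a library loosens the rule, and all 96 genes were then kept among 145 without Fielder replicate 1, 187 without Fielder replicate 2, 256 without Fielder replicate 3, 138 without mutant replicate 1, 167 without mutant replicate 2 and 135 without mutant replicate 3.

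Annotation was at hand for 16 of the 96 genes, all on chromosomes 1A, 1B and 1D and the start of 2A, which is the stretch covered by the given portion of the study's list of differentially expressed genes. No description of the other 80 genes was at hand, and the 16 are not a sample of the 96. Of the 16 genes, 4 carried thylakoid terms. TraesCS1A02G403300 (symbol WHAB1.6), a chlorophyll a/b binding antenna protein, had 238, 162 and 169 counts in the mutant against 0 in every Fielder library, at least 61.7-fold higher. TraesCS1D02G411300, with the same symbol and described as an LHCII type 1-like protein, had 64, 57 and 65 counts in the mutant against 1, 0 and 0 in Fielder (ratio 184, 95% interval 32.6 to 7296). The rule fixed the separation of the groups in both antenna genes.

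TraesCS1A02G392000 (PSAH), subunit VI of the photosystem I reaction center, had 44, 37 and 55 counts in the mutant against 0 in every Fielder library, at least 14.9-fold higher. TraesCS1D02G182600 (psbB), annotated to photosystem II, had 15, 14 and 26 counts in the mutant against 0, 0 and 3 in Fielder (ratio 18.1, 5.88 to 90.5). In plants psbB, which encodes an inner antenna protein of photosystem II, is a gene of the chloroplast genome, so that reads at this chromosomal locus may be shared with a near-identical copy and its counts are uncertain. Its call was lost without mutant replicate 3 (adjusted p = 0.0748, edgeR quasi-likelihood test, Benjamini-Hochberg).

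The genes that share a symbol with these members showed how the Fielder limit sorted related copies. For PSAH, TraesCS1B02G420100 had 37, 39 and 31 counts in the mutant against 2, 5 and 0 in Fielder, and TraesCS1D02G400100 had 70, 114 and 95 in the mutant against 11, 20 and 14 in Fielder. For WHAB1.6, TraesCS1B02G432700 had 143, 163 and 135 counts in the mutant against 0, 10 and 0 in Fielder. These 3 genes were not mutant-only because of their Fielder counts, yet each was higher in every mutant library than in any Fielder library. They were found only within the study's list of differentially expressed genes of these libraries, so an unchanged copy could not appear. The separation and the tests that follow are therefore not independent evidence. Their log2 fold changes were 3.83 ± 0.82, 2.61 ± 0.39 and 5.39 ± 0.67 (SE; adjusted p = 0.00373, 0.000339 and 7.69e-05, edgeR quasi-likelihood test, Benjamini-Hochberg). The counting could have split reads between such similar copies, and no table at hand pairs homoeologues.

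**Figure D2:**
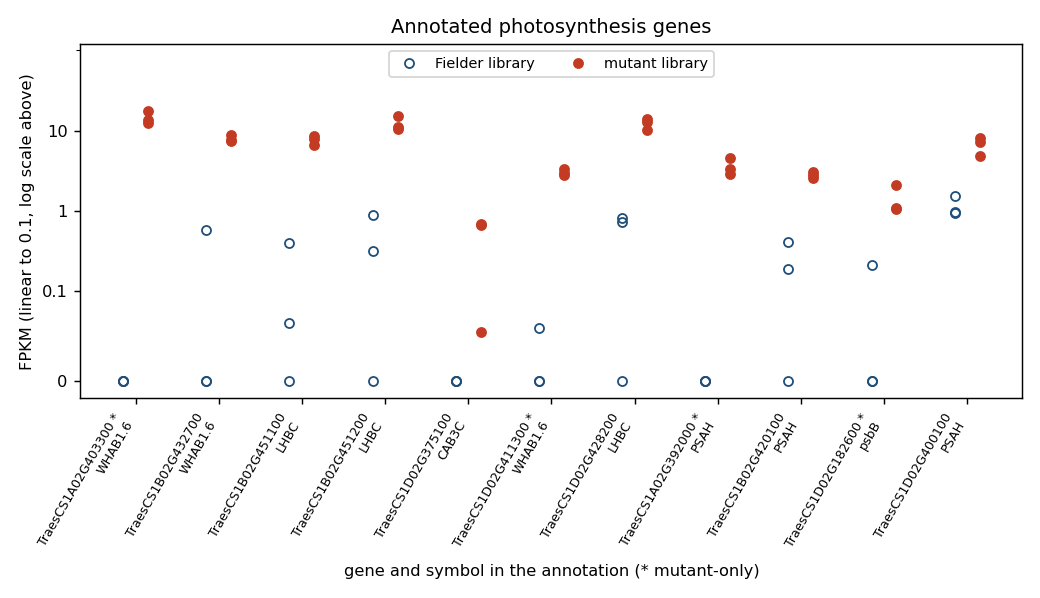
FPKM of the 11 annotated photosynthesis genes in the 3 Fielder libraries (open circles) and the 3 mutant libraries (filled circles), on an axis that is linear to 0.1 and logarithmic above. Every mutant value lies above the Fielder values of its gene, for the 4 mutant-only genes (asterisks) and for the other 7. The rule fixed this for the 4 genes, and the study chose the other 7 as differentially expressed in these same libraries.

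The antenna list held 7 genes, 2 of them mutant-only, and all 6 that were tested were called higher, beside 7.98% of all tested genes, with a median log2 fold change of 5.46 against 0.0046 over all tested genes. Its summed level was 0.124, 2.29 and 1.44 FPKM in Fielder replicates 1, 2 and 3 and 59.4, 54.1 and 62.2 FPKM in the mutant. The photosynthesis list held 4 genes, 2 of them mutant-only, and all 4 were called higher, beside the same 7.98%, with summed levels of 1.15, 1.94 and 1.16 FPKM in Fielder and 12.0, 15.1 and 16.3 FPKM in the mutant. The study chose both lists as differentially expressed in these same libraries, so their direction is not independent evidence. These 11 genes were also the markers of green leaf tissue. Of them, TraesCS1A02G403300, TraesCS1A02G392000 and TraesCS1D02G375100 (CAB3C) were at 0 counts in every Fielder library, and TraesCS1D02G375100 had 14, 13 and 1 counts in the mutant. The summed level of the markers moved with the genotype, which the rule had fixed for the mutant-only genes among them. The part of the markers in the other mutant-only genes was not tested.

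Among the other annotated mutant-only genes, 2 carried terms of chromatin silencing. TraesCS1A02G107000, with terms of histone H3-K9 demethylation and negative regulation of gene silencing, had 94, 71 and 72 counts in the mutant against 0 in every Fielder library, at least 25.7-fold higher. TraesCS1D02G381700 was described as a DDM1-like ATP-dependent DNA helicase. In Arabidopsis, DDM1 is a chromatin remodeller that maintains DNA methylation and the silencing of transposons. The wheat gene had 15, 41 and 19 counts in the mutant against 0, 0 and 1 in Fielder (ratio 74.1, 12.9 to 2965). The terms of these genes point in opposite directions for silencing, one to its relief and the other to its maintenance.

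TraesCS1A02G254000 carried terms of steroid hydroxylase activity and brassinosteroid metabolism, brassinosteroids being steroid hormones of plant growth. It had 22, 11 and 12 counts in the mutant against 2, 0 and 0 in Fielder (ratio 22.2, 5.81 to 189), and its call was lost without Fielder replicate 2 (adjusted p = 0.0614), without Fielder replicate 3 (0.0537) and without mutant replicate 1 (0.0846, edgeR quasi-likelihood test, Benjamini-Hochberg). TraesCS1D02G367700, described as a bHLH87-like transcription factor with terms of photoperiodic flowering, had 33, 31 and 12 counts in the mutant against 0, 0 and 1 in Fielder (ratio 75.1, 13.1 to 3004). TraesCS2A02G123800, a 4-alpha-glucanotransferase of maltose breakdown, a step in the use of starch, had 108, 65 and 88 counts in the mutant against 0, 0 and 1 in Fielder (ratio 258, 45.9 to 10222). This was the second highest ratio among the 68 genes with Fielder counts, and the 28 genes at 0 in Fielder have only lower bounds and cannot be placed in that order.

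The remaining annotated genes were lower or lacked terms. TraesCS2A02G102400, annotated to the sorting and assembly machinery of the mitochondrial outer membrane, had 24, 14 and 22 counts in the mutant against 0 in every Fielder library, at least 6.52-fold higher. TraesCS1B02G120500, with terms of the response to desiccation and salt, had 23, 19 and 17 counts in the mutant against 0, 1 and 2 in Fielder (ratio 19.4, 6.33 to 96.9). TraesCS1A02G385600, with terms of a metal-binding membrane protein, had 19, 14 and 11 counts in the mutant against 0, 0 and 1 in Fielder (ratio 43.5, 7.40 to 1755). None of the 4 genes without any term had a described role, and they follow by their values alone.

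TraesCS1D02G136600 had 44, 32 and 43 counts in the mutant against 0 in every Fielder library, at least 13.0-fold higher. TraesCS2A02G016300 had 40, 53 and 36 counts in the mutant against 0, 0 and 1 in Fielder (ratio 127, 22.5 to 5072). TraesCS2A02G092200 (symbol WUN1) had 52, 42 and 30 counts in the mutant against 0, 0 and 2 in Fielder (ratio 61.2, 16.6 to 511). TraesCS2A02G092700, only 2 listed genes away from it, was the weaker of this pair. It had 19, 12 and 17 counts in the mutant against 2, 2 and 3 in Fielder (ratio 6.77, 3.05 to 17.7). Its call was lost whichever of the 6 libraries was left out, with adjusted p between 0.0602 and 0.112 (edgeR quasi-likelihood test, Benjamini-Hochberg).

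The mutant-only genes were spread over the genome. All 21 chromosomes held at least 1 of them, and none of the 870 listed genes without a chromosome was mutant-only. Chromosome 2D held 9, 2A and 2B held 8 each, 4B and 7D held 7 each and 5D held 6. There were 5 on each of 1A, 1D, 4D and 6B, 4 on each of 3A, 3B, 5A and 6A, 3 on 5B and on 7A, 2 on each of 3D, 4A, 6D and 7B, and 1 on 1B. By subgenome, A and B held 30 genes each (31.3%, Wilson 95% interval 22.9 to 41.1) and D held 36 (37.5%, 28.5 to 47.5). Among the genes with at least 10 counts in every mutant library, the subgenomes held 33.0%, 32.7% and 33.4%, which were within these intervals. With 0 counts required in every Fielder library, the shares of A and D were 46.4% and 25%, of only 28 genes. They were 36.5% and 32.7% with a minimum of 5 mutant counts, and 37.1% each with a minimum of 20.

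**Figure D3:**
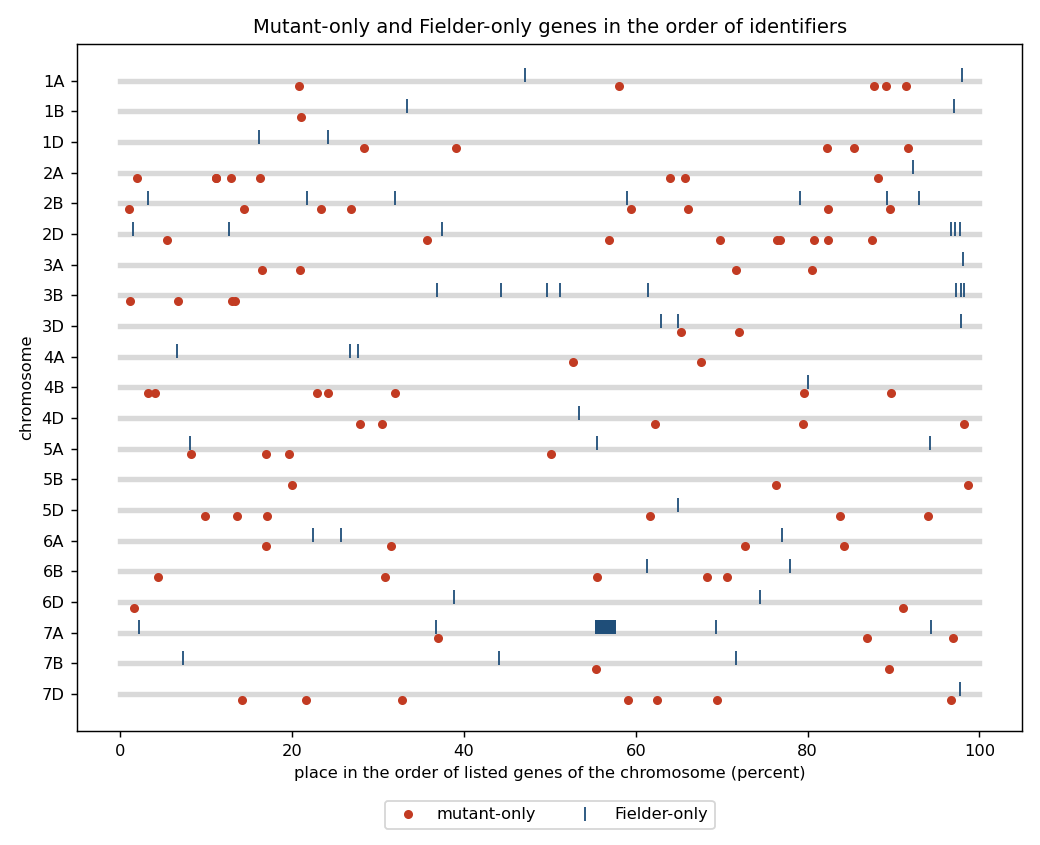
Place of the 96 mutant-only genes (circles) and the 109 Fielder-only genes (ticks) along the 21 chromosomes, as the percent rank of a gene among the listed genes of its chromosome in the order of identifiers. The mutant-only genes are scattered, whereas most Fielder-only genes of chromosome 7A form 1 dense block.

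The homoeologous group 2 chromosomes held 25 of the mutant-only genes (26.0%, Wilson 95% interval 18.3 to 35.6), above the 15.99% of the genes with at least 10 counts in every mutant library that lie on these chromosomes. The groups were 7 in number and this one was singled out after its value was seen. The Fielder-only genes outside 7A, found by the mirrored rule, had a like share on these chromosomes (14 of 53, 26.4%). In the order of identifiers along a chromosome, 5 bins of equal size held 25, 19, 8, 20 and 24 genes. The middle bin thus held 8.33% of the mutant-only genes and 21.3% of the genes with at least 10 counts in every mutant library, and the first and last bins held 26.0% and 25% against 18.9% and 18.1%. These bins were likewise singled out after their values were seen. The Fielder-only genes outside 7A numbered 7, 11, 8, 10 and 16 in the 5 bins. Positions in bases and the places of the centromeres were not used here, because none of the identifiers matched the reference table at hand.

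**Figure D4:**
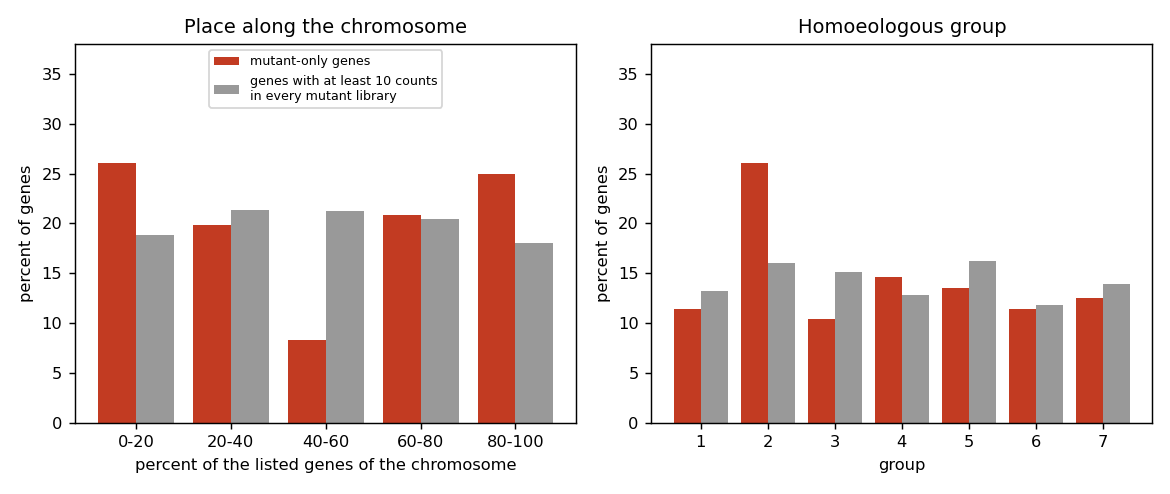
Percent of the mutant-only genes (red) and of the genes with at least 10 counts in every mutant library (grey) in 5 bins of equal size along the chromosome, in the order of identifiers, and by homoeologous group. In the left panel the red bar is lowest in the middle bin (8.33%) and in the right panel highest in group 2 (26.0%).

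Of the 96 mutant-only genes, 4 lay within 10 listed genes of another. They formed the pair TraesCS2A02G092200 and TraesCS2A02G092700 and the pair TraesCS2D02G428000 and TraesCS2D02G429700, the latter 10 listed genes apart. How many genes would lie so close under random placement was not computed. TraesCS2D02G428000 had 40, 26 and 21 counts in the mutant against 0, 0 and 1 in Fielder (ratio 85.9, 15.02 to 3433), and TraesCS2D02G429700 had 12, 10 and 18 counts in the mutant against 0, 1 and 1 in Fielder. No 2 mutant-only genes were adjacent, and the distance to the nearest other one had a median of 262 listed genes. The mirrored rule, at least 10 counts in every Fielder library and at most 3 in every mutant library, found 109 Fielder-only genes with a different layout. Of these, 56 lay on chromosome 7A, 52 lay within 10 listed genes of another, all on 7A, and 44 were adjacent to another in a run that spanned 77 listed genes. Outside 7A there were 53 Fielder-only genes, of which 0 lay within 10 listed genes of another. Without Fielder replicate 1, 2 or 3 there were 103, 82 and 88 of them outside 7A, and without mutant replicate 1, 2 or 3 there were 114, 89 and 97. Of all Fielder-only genes there were 171 without mutant replicate 1.

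The genes next to the mutant-only genes did not enter the rule. Within 5 listed genes on each side there were 950 neighbours, of which 661 (69.6%) passed the filter on low counts, against 74.6% of all listed genes. Of the 661, 48 were called higher in the mutant (7.26%, Wilson 95% interval 5.52 to 9.50) and 35 lower (5.30%, 3.83 to 7.27), beside 7.98% and 5.75% of all tested genes (edgeR quasi-likelihood test, Benjamini-Hochberg). Both shares were close to those of all tested genes, and the median log2 fold change of the neighbours was 0.047 against 0.0046. With library size alone both medians moved down together, to -0.018 and -0.06. Of the neighbours, 9.37% had at most 3 counts in all 6 libraries, compared with 6.91% of all listed genes.

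With 1 listed gene on each side, 12 of 125 tested neighbours were called higher (9.60%, 5.58 to 16.03) and 2 lower (1.60%, 0.440 to 5.65), and their median log2 fold change was 0.23. With 20 on each side, 243 of 2695 were called higher (9.02%, 7.99 to 10.2) and 137 lower (5.08%, 4.32 to 5.98). These intervals treat genes as independent. Of the 96 mutant-only genes, 44 had no called neighbour within 5 listed genes, 25 had only higher ones, 17 only lower ones and 10 had both. The neighbours of the 53 Fielder-only genes outside 7A within 5 listed genes included 30 of 393 called higher (7.63%) and 28 lower (7.12%). With 1 listed gene on each side, 5 of 77 were higher (6.49%, 2.81 to 14.3) and 9 lower (11.7%, 6.27 to 20.7), and their median log2 fold change was -0.19. The difference between the neighbours of the mutant-only and the Fielder-only genes was not tested.

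**Figure D5:**
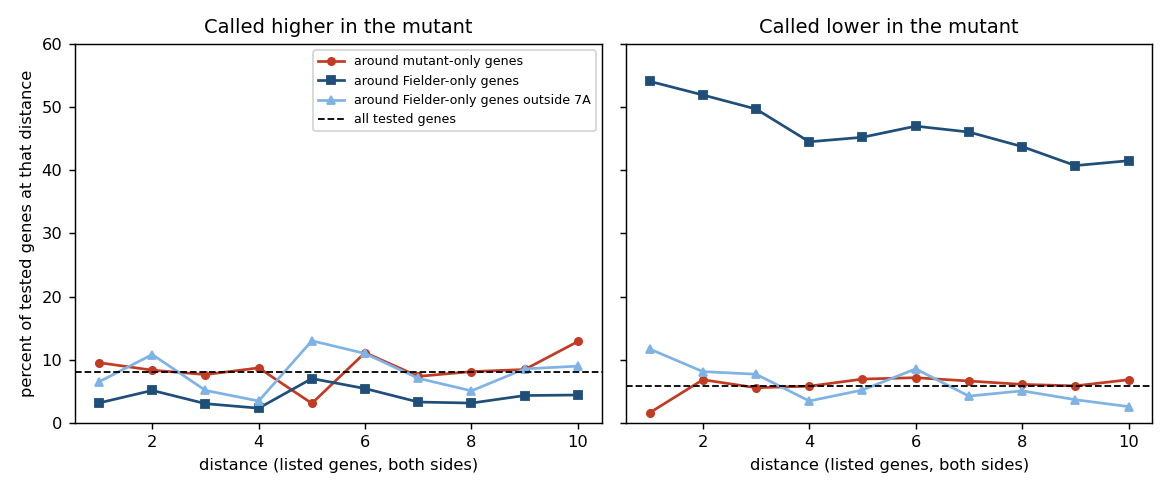
Percent of tested genes called higher (left) or lower (right) in the mutant against the distance in listed genes from a mutant-only gene, a Fielder-only gene or a Fielder-only gene outside chromosome 7A, with genes of the same list counted and the share of all tested genes as a dashed line. Around mutant-only genes the share called higher stays between 3.08% and 12.9%, and the share called lower between 1.59% and 7.14%. Around Fielder-only genes 54.1% are called lower at distance 1 and 16.1% with genes of the list, whose direction its rule fixes, left out. Outside 7A the share is 11.7% at distance 1 and 2.56% at distance 10.

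The mutant-only genes with the most called neighbours showed no common direction. Around TraesCS3A02G113100, with 46, 55 and 28 counts in the mutant against 1, 2 and 0 in Fielder, 2 neighbours were called higher and 2 lower. TraesCS3A02G113700 had 115, 161 and 139 counts in the mutant against 26, 10 and 4 in Fielder, a log2 fold change of 3.30 ± 0.50 (SE). TraesCS3A02G112900 had 14, 60 and 20 counts in the mutant against 0, 0 and 4 in Fielder. The lower ones were TraesCS3A02G113500 and TraesCS3A02G113600, with log2 fold changes of -1.33 ± 0.31 and -1.04 ± 0.23 (SE). With 1 library left out, the calls of TraesCS3A02G113700 and TraesCS3A02G113500 held in all 6 fits, that of TraesCS3A02G112900 in 5 and that of TraesCS3A02G113600 in 4.

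Around TraesCS2B02G130500, with 45, 24 and 41 counts in the mutant against 2, 0 and 2 in Fielder, 3 neighbours were called higher. TraesCS2B02G130300 had 187, 158 and 155 counts in the mutant against 16, 53 and 61 in Fielder, a log2 fold change of 1.95 ± 0.34 (SE). TraesCS2B02G130000 and TraesCS2B02G131200 had log2 fold changes of 1.86 ± 0.58 and 3.13 ± 0.86 (SE). All 3 were called in the direction of the mutant-only gene itself, and the calls of TraesCS2B02G130000, TraesCS2B02G131200 and TraesCS2B02G130300 held in 2, 4 and 6 of the 6 fits that left out 1 library. TraesCS5D02G335100, with 12, 26 and 17 counts in the mutant against 0, 0 and 3 in Fielder, also had 3 neighbours called higher and 0 lower. It tied with TraesCS2B02G130500 in number, and its neighbours are not named here.

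The opposite was seen around TraesCS2D02G428000, where 3 neighbours were called lower. TraesCS2D02G427500 had 22, 14 and 13 counts in the mutant against 320, 275 and 366 in Fielder, a log2 fold change of -4.31 ± 0.27 (SE; adjusted p = 2.00e-07, edgeR quasi-likelihood test, Benjamini-Hochberg). TraesCS2D02G428700 and TraesCS2D02G428900 had log2 fold changes of -1.27 ± 0.23 and -1.33 ± 0.27 (SE). A gene that was nearly lost in the mutant therefore lay 4 listed genes from one that was nearly absent from Fielder.

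Around TraesCS5D02G464800, with 27, 25 and 33 counts in the mutant against 0 in every Fielder library, at least 9.28-fold higher, 3 neighbours were also called lower. TraesCS5D02G464500 had 12, 14 and 4 counts in the mutant against 84, 48 and 85 in Fielder, a log2 fold change of -2.87 ± 0.50 (SE). TraesCS5D02G465200 and TraesCS5D02G463900 had log2 fold changes of -2.35 ± 0.64 and -1.30 ± 0.41 (SE), and their calls held in 3 and 2 of the 6 fits that left out 1 library. Around TraesCS3D02G374600, with 38, 47 and 37 counts in the mutant against 0, 2 and 0 in Fielder, 1 neighbour was called higher (TraesCS3D02G374200, log2 fold change 1.23 ± 0.38, SE, a call that held in 2 of those 6 fits) and 2 lower (TraesCS3D02G374300 and TraesCS3D02G375000, -1.04 ± 0.22 and -1.07 ± 0.20, SE, held in 4 and 5). Calls in both directions thus lay within 5 listed genes of the same mutant-only gene.

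The nearest mutant-only gene to TaTFL1-5A was TraesCS5A02G112600, 122 listed genes away, and the nearest to TaTFL1-5B was TraesCS5B02G115300, 110 listed genes away.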

How the data were processed

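Raw counts per gene and library were deposited by the authors, who mapped filtered reads to wheat reference sequences of Ensembl Plants. The aligner and counter are not given in the sources used here. They also deposited FPKM, made from these counts, the gene length and the library total. The 96 genes and the gene lists were chosen with earlier results of these data known. Counts were fitted with edgeR 4.0.16 (filterByExpr, TMM, glmQLFit and glmQLFTest) in R 4.3.3 over 6 libraries, and p-values adjusted over 52228 genes. Ratios used counts per TMM-normalized library size, with exact conditional 95% intervals. Bounds used 3 counts per library. The SE of a log2 fold change was its absolute value divided by the square root of the quasi-likelihood F statistic.

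Chromosome and order were read from the identifiers, of which 0 matched the reference table, so no sequences or positions in bases are given. Descriptions came from the study's list of differentially expressed genes (1078 genes given), whose values were not used.

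The genes named were the 10 highest by CPM, the 5 highest by FPKM, those within 10 listed genes of another, all annotated ones with genes of the same symbol, the 5 with the largest spread, 3 at each limit, the called neighbours of the 5 with most such neighbours, and the edited genes. TraesCS5D02G335100 tied with the last of the 5 genes with most called neighbours, and its neighbours were left out. Alternatives were DESeq2 1.42.0, RLE factors, library size alone, limma 3.58.1 on log-scaled FPKM with pseudocounts of 0.1 and 1, no filter, a replicate block, other limits and windows, and each library left out. The edgeR and DESeq2 calls were tested on simulated counts, whose changed genes were not near the counting floor in either group. The ratios, bounds, places and neighbours were not part of that test. Summaries used Python 3.11.15, numpy 2.4.6, pandas 2.3.3, scipy 1.17.1 and matplotlib 3.10.9.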

Additional observations from a re-analysis of the deposited data

How the results depend on the processing

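The number of mutant-only genes was 96 by the rule, 28 with 0 counts required in every Fielder library, 263 with a minimum of 5 counts, 35 with a minimum of 20 and 135 to 256 with 1 library left out. The Fielder-only genes numbered 109, and 47, 214 and 63 under the same 3 limits and 140 to 171 with 1 library left out. Outside chromosome 7A they numbered 53, and 9, 152, 17 and 82 to 114. With 0 counts required, the A share was 46.4% and the D share 25%. With limma on log2(FPKM + 1), 50 mutant-only genes were called higher. Over all tested genes, 2728 were called higher (5.22%) and 2099 lower (4.02%), and of the neighbours 33 higher (4.99%) and 21 lower (3.18%). A pseudocount of 1 shrinks low genes. With 1 gene on each side, 2 of 125 neighbours were called lower (1.60% against 5.30% with 5 on each side), and the cause was not tested.

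The neighbours' median log2 fold change of 0.047 was 0.074 with DESeq2, -0.018 with library size alone, -0.019 and -0.0069 with limma on log2(FPKM + 0.1) and log2(FPKM + 1), 0.14 without the filter, 0.23 with 1 gene and 0.027 with 20 genes on each side, and 0.036 to 0.071 with 1 library left out. The median over all tested genes moved as well. It was 0.015 with DESeq2, -0.06 with library size alone and 0.025 without the filter. With limma on log2(FPKM + 0.1) and log2(FPKM + 1) it was -0.046 and -0.038. In each of these settings it lay below the median of the neighbours. With 1 library left out, 37 to 62 neighbours were called higher (5.49% to 9.12%, beside 6.44% to 9.42% of all tested genes). Between 29 and 45 were called lower (4.26% to 6.62%, beside 4.86% to 6.10%).

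Same-numbered libraries had deviation correlations of -0.0237, 0.0505 and 0.0094, and differently numbered ones between -0.0495 and 0.0469. These few values cannot settle whether the replicate numbers pair the libraries, and the main fit used no pairing. A replicate block called 88 mutant-only genes. It called 52 neighbours higher (7.87%, beside 8.23% of all tested genes) and 35 lower (5.30%, beside 5.61%). The median log2 fold change of the neighbours was then 0.059, against 0.015 over all tested genes. Of 416 alternative fits of 32 named mutant-only genes, 393 kept the call, 23 in 11 genes lost it and 0 reversed. The rule used the counts of these same libraries, so the direction was fixed and the kept calls are not independent evidence. The smallest mutant count had a median of 15, so that few counts separated most genes from the limit of 10.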

Other observations

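The annotated stretch also held 10 genes with terms of photoperiodism or flower development, of which 9 were tested, 3 were called higher and 5 lower, beside 7.98% and 5.75% of all tested genes, with a median log2 fold change of -1.04 against 0.0046 over all tested genes (edgeR quasi-likelihood test, Benjamini-Hochberg). The study chose them as differentially expressed in these libraries. The bHLH87-like gene TraesCS1D02G367700 was the mutant-only gene among them. TraesCS1A02G220300, a CO-like gene, missed the rule by 1 count, with 27, 26 and 9 counts in the mutant against 0, 0 and 1 in Fielder. The other genes called higher were TraesCS1B02G244300, with 97, 17 and 75 counts in the mutant against 12, 18 and 21 in Fielder, and TraesCS2A02G100800 (cyclic dof factor 1-like), with 212, 150 and 230 counts in the mutant against 77, 75 and 128 in Fielder. In the former the groups overlapped through mutant replicate 2, and its call held in 2 of the 6 fits that left out 1 library.

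The 5 genes called lower kept counts in every library of both groups. They included TraesCS1B02G180300 (FLX-like 3), with 52, 93 and 53 counts in the mutant against 203, 276 and 265 in Fielder, TraesCS1D02G307500 (GAMYB-like), with 23, 23 and 36 counts in the mutant against 99, 81 and 74 in Fielder, and TraesCS1D02G111400 (REVEILLE 6-like), with 95, 19 and 86 counts in the mutant against 106, 149 and 208 in Fielder. The call of the last gene held in 2 of the 6 fits that left out 1 library.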
